A study of Homo sapiens with 6 samples.

Results

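The SR proteins are RNA-binding splicing factors with a carboxy-terminal domain rich in arginine and serine, and their genes carry the symbol SRSF in human. The 10 genes described here, SRSF1, SRSF2, SRSF3, SRSF4, SRSF5, SRSF6, SRSF7, SRSF9, SRSF10 and SRSF11, were chosen by symbol, 10 of the 37192 genes to which the counted transcripts could be matched. They were measured in 6 libraries from K562 cells, an established chronic myelogenous leukemia line grown in medium with serum and antibiotics and given no treatment, so that the only groups are the 2 assays. The 2 PRO-seq libraries show where RNA polymerase is engaged, from the nascent RNA it holds, and the 4 total RNA-seq libraries, made after rRNA depletion, measure steady-state RNA. Per the methods, all cells came from 1 flask, so that every SD and p below covers the spread between these libraries and not between cultures.

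Counts on transcription units (TUs) ranged from 5732780 to 9002746 in RNA-seq and were 6993816 and 7245632 in PRO-seq. RNA-seq replicates 1 and 3 differed by little more than counting noise (chi-square per degree of freedom 1.11), as did replicates 2 and 4 (1.12), whereas the other 4 pairs gave 1.74 to 2.11. The SDs and SEs below nevertheless take all 4 as separate libraries. All 7 erythroid markers of K562 found in the data lay above 1 TPM, from 28.4 to 6287. Of 11 T cell, B cell, epithelial and fibroblast markers, CD3D (109 TPM), EPCAM (120 TPM) and COL1A2 (1.36 TPM) lay above 1 TPM and the others below it. Their part in the values of the SRSF genes was not tested.

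SR proteins bind enhancer sequences in exons and help to bring the splicing machinery to nearby splice sites, and several also travel with mRNA to the cytoplasm. They are phosphorylated by SRPK and CLK kinases and are often opposed by hnRNP proteins, which bind many silencer sequences. SR genes are a textbook case of splicing coupled to decay: many hold a poison exon, or a splice event in the 3′ untranslated region, that exposes a premature stop codon, and RNAs carrying one are targets of nonsense-mediated decay (NMD). Which forms of an SR gene a count covers therefore matters for its level.

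For each of the 10 genes the deposited counts were those of 1 transcript, and each of these was of the protein-coding type. It was the MANE Select transcript, the representative chosen jointly by RefSeq and Ensembl, for 6 genes (SRSF1, SRSF2, SRSF3, SRSF4, SRSF6 and SRSF9) and another transcript for 4 (SRSF5, SRSF7, SRSF10 and SRSF11). In the GENCODE annotation the 10 genes had 120 transcripts, of which 45 were protein-coding, 28 NMD targets, 30 retained-intron transcripts and 17 without a defined coding sequence. The premature stop lay outside the counted exons in 20 of the 28 NMD transcripts, and in 13 it lay in an exon that shared no base with a counted exon. RNA-seq reads wholly inside such an exon were not part of the gene's count, whereas PRO-seq was counted over the whole span, whatever the later splicing. SRSF7 had the most NMD transcripts, 6, all with the stop outside the counted exons. SRSF2 was the opposite case, with the stop of both its NMD transcripts inside counted exons, as that stop is the usual one and the NMD transcripts remove an intron from the exon that follows it.

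The sequences that set these forms apart are the stops themselves. They are printed for 1 NMD transcript of each gene, the longest with a stop outside the counted exons (for SRSF2, the longest, with its usual stop), as the last 27 spliced bases and then the stop codon in capitals, 5′ to 3′, from the GENCODE transcripts, with the position of the stop codon on GRCh37.
SRSF1 (ENST00000581979, chr17:56083108-56083110, minus strand): tttgaccagaattggatacagtggtctTAA
SRSF2 (ENST00000585202, chr17:74732243-74732245, minus strand): cctgaagaggaaggagcggtgtcctctTAA
SRSF3 (ENST00000477442, chr6:36567629-36567631, plus strand): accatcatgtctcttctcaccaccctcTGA
SRSF4 (ENST00000691479, chr1:29492521-29492523, minus strand): ggagaggttcggttcttacaaggaaaaTGA
SRSF5 (ENST00000555547, chr14:70236276-70236278, plus strand): atgacgaggagtgcctgtgggttatccTAA
SRSF6 (ENST00000483871, chr20:42087942-42087944, plus strand): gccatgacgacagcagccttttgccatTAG
SRSF7 (ENST00000425778, chr2:38976461-38976463, minus strand): aggtttcttcgtttgagtcagtcgcctTGA
SRSF9 (ENST00000706468, chr12:120901926-120901928, minus strand): tgtgggctttcttatgttctccatgccTAG
SRSF10 (ENST00000495785, chr1:24305163-24305165, minus strand): ttcagatggctgattagtgaggggtgtTGA
SRSF11 (ENST00000687381, chr1:70696296-70696298, plus strand): aaaaaaatactcttgacgcatgaaaatTAA

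In SRSF3 the stop sits in a poison exon of 456 bases (chr6:36567598-36568053), and in SRSF4, SRSF6 and SRSF7 in exons of 175, 268 and 449 bases, none of which overlaps a counted exon. In SRSF1, SRSF5, SRSF9 and SRSF10 the exon with the stop, of 1051, 1030, 205 and 165 bases, overlaps a counted exon and runs on into sequence that was not counted. Across the 28 NMD transcripts the stop lay 95 to 1149 bases upstream of the last exon junction. The reverse also occurs, since counted bases can be intron in other transcripts of the gene: the share was 81.3% in SRSF6, 41.6% in SRSF9, 39.4% in SRSF1 and 29.4% in SRSF2, against 0% in SRSF3 and 1.29% in SRSF11. Retained-intron transcripts were most numerous for SRSF5 (8), and SRSF6 had none. The counts give 1 value per gene and so do not show how many reads came from NMD or retained-intron forms.

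Steady-state levels are given as TPM, transcript abundance scaled by exon length and library size and computed here from the counts. SRSF3, which also acts in mRNA export and polyadenylation, had the highest, with 622, 646, 642 and 669 TPM in RNA-seq replicates 1 to 4 (mean 645 ± 19.2, SD, n = 4). SRSF7, its close relative with a zinc knuckle, followed with 460, 485, 464 and 469 TPM, and SRSF2, a regulator of exon inclusion, with 446, 459, 444 and 449 TPM. SRSF9 gave 386, 444, 404 and 434 TPM. With the counted length these 4 genes stood apart from the other 6. SRSF9 lay 1.08 ± 0.060 (SD, n = 4 libraries) log2 units above the fifth, SRSF5. The 4 ranked between the 96.1st and the 97.7th percentile of the 8733 mRNAs tested below. The gap above SRSF5 depended on the length. With the length shared by the counted and the MANE transcript, SRSF9 had 337 TPM and SRSF5 299 TPM.

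SRSF5 gave 191, 199.5, 188 and 208 TPM, SRSF4 157, 167, 151 and 167 TPM, and SRSF6 148, 156, 150 and 160 TPM. These 3, like SRSF1 and SRSF9, carry a pair of RNA recognition motifs. SRSF1, the prototype of the family, gave 142, 145, 143 and 153 TPM. SRSF11 gave 128, 135, 128 and 133 TPM, and SRSF10, which represses splicing when it is dephosphorylated, gave 111, 115, 118 and 119 TPM. From SRSF3 to SRSF10 the level fell 5.59-fold. The libraries of SRSF4 and SRSF6 overlapped, as did those of SRSF6 and SRSF1, while no other pair of neighbours in the order did. With the counted length, the order of the 10 genes was the same within each of the 4 libraries. The coefficient of variation over libraries ran from 1.45% in SRSF2 to 6.42% in SRSF9.

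**Figure D1:**
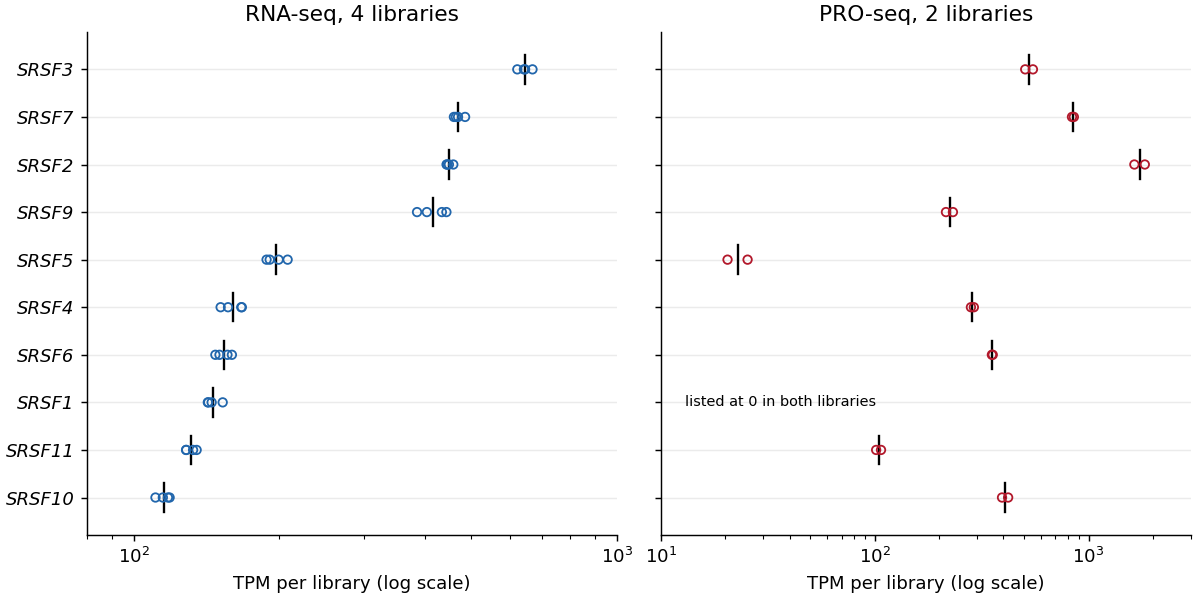
TPM of each SRSF gene in each of the 4 RNA-seq libraries (left) and 2 PRO-seq libraries (right), on log axes; each circle is 1 library and the bar is the mean. The order of the genes by RNA-seq differs from that by PRO-seq: SRSF10 is lowest on the left at 115 TPM but reaches 407 TPM on the right, and SRSF1 is listed at 0 in PRO-seq.

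Nascent transcription, as PRO-seq TPM over the span of the TU without 500 bp at each end, spread further. SRSF2 was highest with 1638 and 1833 TPM in replicates 1 and 2, above 99.8% of tested mRNAs. SRSF7 gave 837 and 854 TPM, SRSF3 550 and 506 TPM, SRSF10 421 and 394 TPM, SRSF6 356 and 353 TPM, SRSF4 282 and 291 TPM, and SRSF9 232 and 215 TPM. SRSF11 followed with 107 and 102 TPM and SRSF5 came last with 20.5 and 25.5 TPM. No neighbours in this order overlapped. The 9 genes spanned 75.4-fold, against 5.59-fold in RNA-seq for all 10, but this rests on SRSF5, whose counted transcript is far longer than its MANE transcript: with the length shared with MANE, the span was 11.2-fold in PRO-seq, SRSF5 stood at 122 TPM, above SRSF9 (118 TPM), and SRSF11 came last with 81.4 TPM. Their median PRO-seq level was 355 TPM and that of the tested mRNAs 47.5 TPM (186 and 27.5 TPM with the shared length), and the median RNA-seq level of all 10 was 179 TPM against 31.2 TPM.

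SRSF1 was the gene without a nascent level. It was listed at 0 in both PRO-seq libraries, although it had 2958, 3179, 1991 and 2447 counts in RNA-seq replicates 1 to 4. Its whole span (chr17:56078280-56084607 on GRCh37, minus strand) lies inside a readthrough TU on the same strand, ENSG00000266086, which has a span of 18209 bp and held 2295 and 2282 PRO-seq counts. Another TU, ENSG00000279069, covers 9.40% of it on the opposite strand. No base of SRSF1 was therefore free of a second TU in PRO-seq, and 68.4% of its exon bases were in RNA-seq. Of the 174 mRNAs in the data with at least 100 RNA-seq counts and no base free of another TU on their strand, 163 (93.7%) were at 0 in PRO-seq, against 8 of 5700 (0.140%) with every base free on both strands. When only the free exon bases were taken as length, SRSF1 had 205 TPM in RNA-seq rather than 146. With that length it ranked above SRSF5 (190 TPM), SRSF4 (156 TPM) and SRSF6 (148 TPM), which all lay above it with the counted length. By counting error alone a count of 0 would allow up to 1.08 TPM (3 counts over both libraries), but the 0 is not read as a level of transcription, and no relative half-life was computed for it.

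SRSF2 is also covered from end to end, by MFSD11 (45.6% of its span) and by a readthrough TU (100%), but both TUs lie on the opposite strand, and it held 939 and 1071 PRO-seq counts. None of 250 mRNAs covered in this way was at 0, with a median of 274 counts. SRSF9 shares 25.7% of its span with GATC and SRSF11 5.14% with ENSG00000228988, again on the opposite strand. Apart from SRSF1, no SRSF gene shared a counted base with a matched TU on the same strand.

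Dividing the steady-state TPM by the nascent TPM gives a relative half-life, a number with no time unit, shown here as log2 relative to the median mRNA. It rests on the steady state and on equal elongation rates, neither of which was measured here. It was tested with edgeR's quasi-likelihood test on the counts of all 6 libraries, over the 9929 TUs whose TPM passed 10 (PRO-seq) and 1 (RNA-seq), with Benjamini-Hochberg adjustment. All 9 SRSF genes with values differed from the median mRNA, 4 above and 5 below it. This is what most TUs did: 40.4% of all TUs tested were above, 50.0% below and 90.4% on either side, so the count itself does not set the SRSF genes apart. Their median was -0.19, against -0.23 over all TUs tested, and their range ran from -1.31 to 3.73.

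With a difference of at least 2-fold as the test, SRSF5 and SRSF9 passed above (21.5% of all TUs did) and SRSF2 and SRSF10 below (29.2%), together 4 of 9 genes beside 50.8% of all TUs. SRSF9 had a log2 relative half-life of 1.54 ± 0.065 (SE), 2.90-fold above the median mRNA, with an adjusted p of 6.4e-20 in edgeR. When 1 library of each assay was taken at a time, the 8 combinations gave 1.36 to 1.69. SRSF2 lay at -1.31 ± 0.047 (SE), 2.48-fold below the median mRNA (edgeR adjusted p = 5.5e-22, combinations -1.40 to -1.22), at the 20.3rd percentile of mRNAs. SRSF10 lay at -1.18 ± 0.047 (SE), 2.27-fold below it (edgeR adjusted p = 9.5e-21, combinations -1.29 to -1.09). The ratios of RNA-seq to PRO-seq TPM behind these values were 0.259 for SRSF2, 0.283 for SRSF10 and 1.87 for SRSF9, against a median of 0.643 over tested mRNAs.

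SRSF3 was at 0.93 ± 0.041 (SE; edgeR adjusted p = 1.6e-19) and SRSF6 at -0.57 ± 0.057 (SE; 9.0e-11). SRSF4 and SRSF7 lay close to the median mRNA, at -0.19 ± 0.044 (edgeR adjusted p = 1.5e-04) and -0.21 ± 0.039 (1.3e-05). The signs of these last 3 negative values depend on which TUs set the median. With at least 1 count and no TPM thresholds the TUs in both fits shifted up by a median of 0.63. SRSF4, SRSF7 and SRSF6 moved to 0.43, 0.42 and 0.056. SRSF2 and SRSF10 kept their sign but moved to -0.68 and -0.56, less than 2-fold below the median mRNA. The 4 genes above the median mRNA moved farther up. In the order of the 9 genes, SRSF11 and SRSF3 overlapped over the 8 combinations, as did SRSF4 and SRSF7, and SRSF10 and SRSF2. The other neighbours were in the same order in 8 of 8 combinations.

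**Figure D2:**
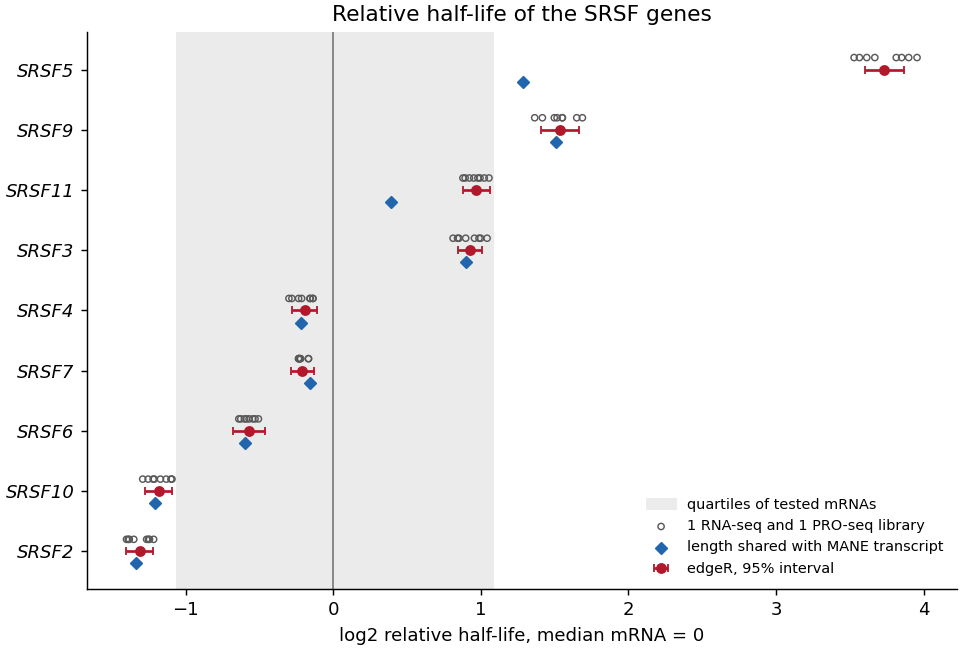
Log2 relative half-life of the 9 SRSF genes with PRO-seq counts, with the median mRNA at 0 and the quartiles of the 8733 tested mRNAs (-1.06 to 1.08) shaded; red points are the edgeR values with 95% intervals, open circles the 8 combinations of single libraries, and blue diamonds the values with the length shared with the MANE transcript. SRSF5 moves from 3.73 to 1.28 and SRSF11 from 0.97 to 0.39, while the other 7 move little.

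With the counted length SRSF5 had the highest value, 3.73 ± 0.067 (SE; edgeR adjusted p = 9.4e-30), 13.3-fold above the median mRNA and at the 98.7th percentile. It was also the gene whose counted transcript was least like the gene's usual form. That transcript, ENST00000553521, spans 45105 bp (chr14:70193617-70238721 on GRCh37, plus strand), against 4864 bp for the MANE transcript, and 18 of the 19 annotated transcripts start more than 1 kb downstream of it. Its 234 and 296 PRO-seq counts, divided by the long span, gave 12.02 counts per kb, the lowest of the 9. With the length shared by the counted and the MANE transcript, and all counts taken as falling in it, PRO-seq rose from 23.01 to 122 TPM. RNA-seq rose from 197 to 299 TPM. Log2 relative half-life fell from 3.73 to 1.28 ± 0.072 (SE; edgeR adjusted p = 2.5e-16), 2.43-fold above the median mRNA. The sign and the call held, but the size depended on the length, and the first place passed to SRSF9 (1.51 with the same length).

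SRSF11 was the other case. Its counted transcript spans 47329 bp against 31673 bp for the MANE transcript, and 14 of its 18 transcripts start over 1 kb downstream. Its value of 0.97 ± 0.046 (SE; edgeR adjusted p = 1.6e-18) fell to 0.39 ± 0.046 (SE; 5.7e-09) with the shared length. For SRSF7 and SRSF10, whose counted transcripts were not the MANE ones either, the spans differed by little (7896 and 7763 bp, 15528 and 15981 bp), and the values moved from -0.21 to -0.16 and from -1.18 to -1.21. This length was taken as an alternative after the values had been seen.

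**Figure D3:**
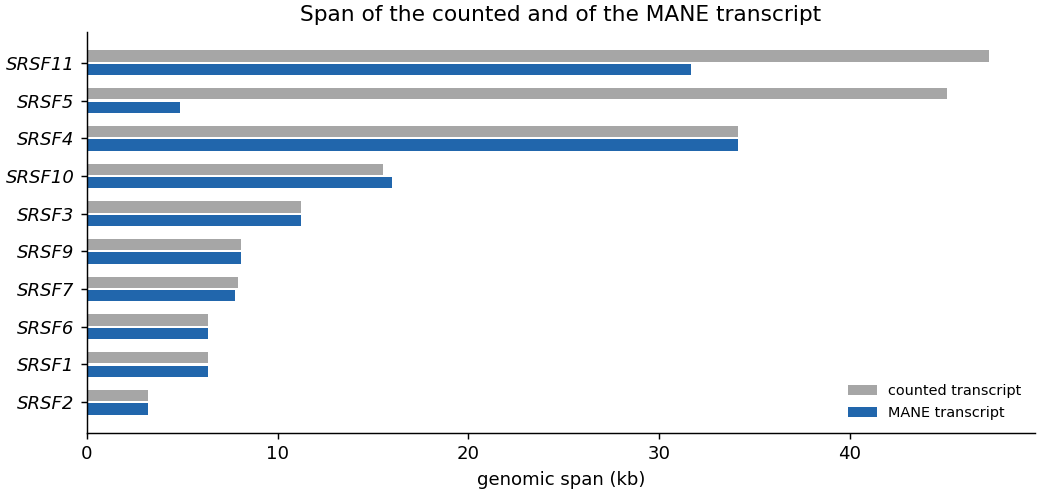
Genomic span in kb of the counted transcript (grey) and of the MANE transcript (blue) for the 10 SRSF genes. The bars are equal for the 6 genes counted on the MANE transcript, and SRSF5 (45105 against 4864 bp) and SRSF11 (47329 against 31673 bp) have much longer counted than MANE transcripts.

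Within the family, close relatives differed. SRSF3 lay 1.14 ± 0.057 (SE, from both genes' errors) log2 units above SRSF7 (95% interval 1.02 to 1.25), with 1.37 times its RNA-seq TPM but 0.624 times its PRO-seq TPM. In the 8 combinations this difference was 1.02 to 1.27. SRSF4 lay 0.38 ± 0.072 (SE) above SRSF6 (0.24 to 0.52). SRSF5 exceeded SRSF6 by 4.31 ± 0.088 (SE), or by 1.88 ± 0.092 (SE) with the shared length. SRSF8, a retrotransposed relative of SRSF2 that is not among the 10, had 10.6-fold less RNA-seq and 14.1-fold less PRO-seq TPM than SRSF2, and SRSF2 minus SRSF8 was -0.41 ± 0.12 (SE) in log2 relative half-life (95% interval -0.65 to -0.17). SRSF12, the remaining SRSF symbol, was close to silent, with 2, 0, 0 and 0 counts in RNA-seq and 6 and 9 in PRO-seq.

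**Figure D4:**
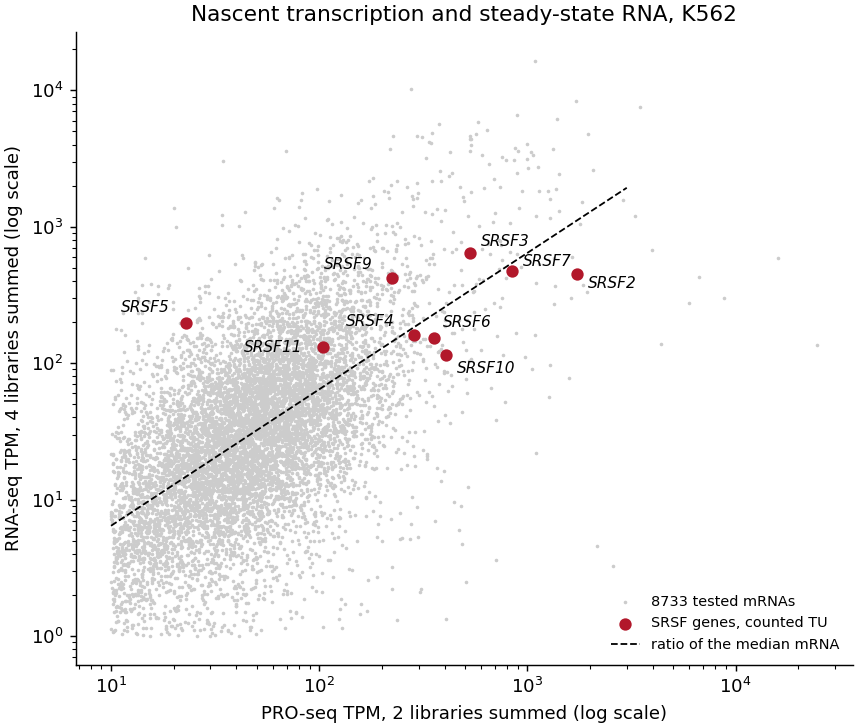
RNA-seq TPM (4 libraries summed) against PRO-seq TPM (2 libraries summed), on log axes, for the 8733 tested mRNAs (grey) and the 9 SRSF genes with counts in both assays (red); the dashed line has the ratio of the median mRNA. SRSF5, SRSF9, SRSF11 and SRSF3 lie above the line and SRSF2 and SRSF10 farthest below it.

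Reads from near-identical copies could add to or be lost from these counts. Of all 75-base windows of the counted exons, the RNA-seq read length, 8.53% in SRSF9, 5.23% in SRSF6 and 2.02% in SRSF3 occur again elsewhere on the assembled chromosomes of GRCh37, and under 1% in each of the other 7. Of the 224 such windows in SRSF6, 213 lie in the pseudogene SRSF6P2. The 3 SRSF pseudogenes in the data (13 are annotated) held few counts: SRSF6P2 had 21 in RNA-seq and 13 in PRO-seq, SRSF10P1 had 1 and 0, and SRSF8BP had none. SRSF6P2 has a log2 relative half-life of -8.30, which rests on a PRO-seq length of 34 bp.

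The genes that act with or against SR proteins were taken in 4 lists and described by their counts in the same edgeR fit, in which 45.4% of the mRNAs tested lay above the median mRNA and 44.9% below (40.4% and 50.0% of all TUs). Among SR kinases and carriers, 9 of 11 were tested, 4 above the median mRNA and 4 below, with a median of -0.09. The kinase SRPK1 (1.15) and the import receptor TNPO3 (1.26), which load SR proteins with phosphate and carry them to the nucleus, lay above it, as did CLK3 (0.28), which turned to -0.29 with the MANE length. CLK2, a nuclear SR kinase (-1.75), DYRK1A (-1.51) and the export receptor NXF1 (-1.50) were lowest. Among 29 tested SR-related and partner proteins, 7 were above and 15 below, with a median of -0.25. The lowest were the large speckle proteins SRRM2 (-3.23), SRRM1 (-1.73) and SON (-1.59), and the highest were RSRC1 (3.04), RSRP1 (2.07, but -1.04 with the MANE length) and SNRNP70 (1.70), a protein of the U1 particle.

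Among 24 tested hnRNP proteins 12 were above and 11 below, with a median of 0.11. The abundant HNRNPK (2.23) and HNRNPC (1.83) were among the 3 highest, with HNRNPH2 (2.63, on 72 PRO-seq counts). HNRNPA0 (-1.89), PCBP1 (-1.75) and HNRNPD (-1.53) were lowest. Of 8 tested NMD factors, which act on the premature-stop forms printed above, 4 were above and 4 below, with a median of -0.24. The helicase UPF1 (0.54), SMG5 (0.34) and UPF3A (0.31) were highest, SMG9 (-2.56) was lowest, and SMG1 (-0.84) was also below the median mRNA. The median PRO-seq level of the SRSF genes, 355 TPM, stood beside 242 TPM for hnRNP proteins, 119 TPM for kinases and carriers, 117 TPM for SR-related proteins and 68.5 TPM for NMD factors. With the shared length these medians were 186, 140, 62.6, 64.5 and 36.0 TPM, with those of kinases and SR-related proteins in the other order. These are descriptions of lists, and the lists were not tested against each other.

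**Figure D5:**
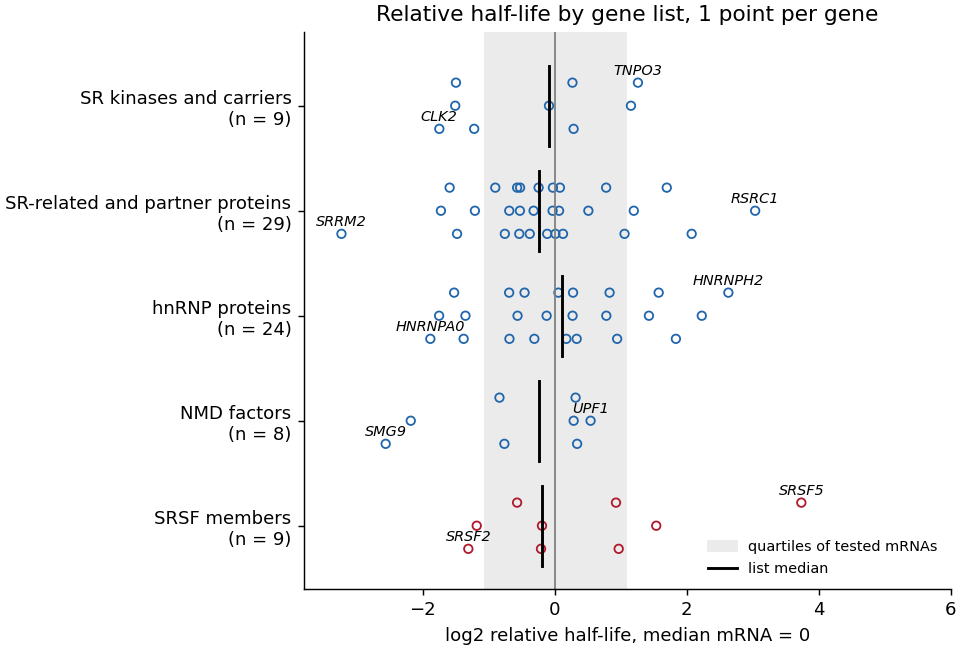
Log2 relative half-life of each tested gene in the 4 lists and of the 9 SRSF genes, 1 circle per gene, with the list median as a bar and the quartiles of tested mRNAs shaded; the vertical scatter within a list has no meaning. Every list lies on both sides of the median mRNA, and the list medians run from -0.25 to 0.11.

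For each SRSF gene the protein-coding TU with the most similar profile was found as the smallest Euclidean distance over log2 TPM in the 6 libraries, among 11501 TUs. The closest match was AK6 for SRSF11 (distance 0.133), and the least close TXNIP for SRSF2 (0.543), a gene with 377 TPM in RNA-seq and 1853 TPM in PRO-seq. The others were TUBB4B for SRSF3, ID1 for SRSF4, MRPS9 for SRSF5, VAPA for SRSF6, DDX5 for SRSF7, VCP for SRSF9 and YRDC for SRSF10, at distances of 0.204 to 0.376. DDX5, an RNA helicase with roles in splicing, had 505 TPM in RNA-seq and 928 TPM in PRO-seq and a log2 relative half-life of -0.24. This likeness is set by levels within 1 cell line.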

How the data were processed

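The authors deposited raw counts of reads per transcript for each library, without normalization, with Cutadapt for trimming, HISAT2 as aligner on GRCh38 and HTSeq as counter. Tool versions, and the HTSeq modes for strand and overlap, were not given in the sources used here. Per the labels, RNA-seq was counted on exons of the longest transcript and PRO-seq on its span without 500 bp; removal at each end follows the methods. In the paper, a choice of isoform by abundance is described for sequence features such as G+C content, and not in the section on read counting. In the annotation used here, the counted transcript of SRSF10 has a shorter genomic span (15528 bp) than the MANE transcript (15981 bp). Longest could also mean spliced length, and the annotation behind the counts may differ. How the counted transcript was chosen is therefore not settled. Records that the counter did not assign to 1 TU, for any reason, made up 66.5% to 68.6% in RNA-seq, 86.5% and 88.6% in PRO-seq. They include reads over more than 1 TU and were left out. Reads over more than 1 TU made up 4.64% to 4.68% of those on TUs in RNA-seq and 6.54% or 6.68% in PRO-seq.

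The 42371 transcripts were joined by identifier to GENCODE version 44 lifted to GRCh37 (37339 found, 88.1%), which gave lengths, types, coordinates and sequences. Lengths may differ from those on GRCh38. TPM used counts summed per assay, exon length in RNA-seq and span minus 1000 bp in PRO-seq. edgeR (version 4.0.16, R version 4.3.3) fitted all 6 libraries with TMM normalization, length offsets and Benjamini-Hochberg adjustment, with 0.05 as the threshold, and DESeq2 (version 1.42.0) was an alternative. On simulated data edgeR recovered 93% of 200 TUs changed 2-fold among 9929, with 14 false calls, for RNA-seq against PRO-seq. The simulation gave all TUs the same spread beyond counting error and left the other TUs unchanged. In the data most TUs differed, so these rates need not hold there or for smaller differences. Python 3.11.15 with pandas, numpy and numba did the rest.

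Genes named are the 10 SRSF genes, SRSF8, SRSF12, SRSF pseudogenes, genes overlapping a member, the gene nearest to each in profile, and in each list the 3 highest and the 3 lowest past the threshold, of which 1 gene is not reported here. Members, lists and tests were chosen with earlier results of these data known. The alternatives covered normalization, filters, the PRO-seq length, a 2-fold difference, a replicate block, close RNA-seq libraries summed, each library left out and, chosen after seeing the data, 2 other lengths. Intervals and counts cover counting and library error only.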

Additional observations from a re-analysis of the deposited data

How the results depend on the processing

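Each SRSF gene kept its direction and call with DESeq2, library totals, thresholds of 20 and 2 TPM, 500 bp removed for PRO-seq, the close RNA-seq libraries summed, both other lengths, and each library left out. With the close RNA-seq libraries summed, the SE of every SRSF gene was larger (0.057 against 0.047 for SRSF2). With 1 library left out, values ranged from 3.60 to 3.88 for SRSF5, 1.464 to 1.604 for SRSF9, 0.91 to 1.02 for SRSF11, 0.85 to 1.00 for SRSF3, -0.21 to -0.17 for SRSF4, -0.22 to -0.20 for SRSF7, -0.60 to -0.55 for SRSF6, -1.25 to -1.12 for SRSF10 and -1.38 to -1.25 for SRSF2. With at least 1 summed count and no TPM thresholds, 20644 TUs were tested and the TUs in both fits shifted by a median of 0.63. SRSF4 (0.43), SRSF7 (0.42) and SRSF6 (0.056, edgeR adjusted p = 0.40) changed sign. SRSF2 (-0.68) and SRSF10 (-0.56) stayed below the median mRNA, but by less than 2-fold. A 2-fold difference was not tested in this setting. There, 6543 TUs were above and 7722 below the median mRNA, against 4008 and 4963, with 2 SRSF genes below, 18 SR-related proteins above and 6 below, and 5 hnRNP proteins below.

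With a 2-fold difference tested, SRSF3 (0.93), SRSF11 (0.97), SRSF4 (-0.19), SRSF7 (-0.21) and SRSF6 (-0.57) no longer passed in edgeR (adjusted p from 0.82 to 1), since the test asks for more. It called 2138 TUs above and 2901 below, with 2 SRSF genes each way, 2 kinases and carriers above, 4 SR-related proteins above and 5 below, 5 hnRNP proteins each way, and 0 NMD factors above and 2 below (edgeR, where 4 and 4 passed without the 2-fold margin and by DESeq2). The median RNA-seq level of the SRSF genes, 179 TPM, was 215 TPM with the MANE length and 198 TPM with free length. Their median PRO-seq level, 355 TPM, was 393 TPM with 500 bp removed, 186 TPM with the MANE length and 289 TPM with free length, as TPM scales with every TU's length.

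Replicate numbers 1 and 2 are shared by both assays, but the deviations of same-numbered libraries were not correlated (r = -0.011 over 9841 TUs). With all cells from 1 flask, this cannot tell whether same-numbered libraries were paired. The fit with the replicate block called 3912 TUs above and 4865 below, gave 3.72 for SRSF5 and -1.30 for SRSF2, and changed no call of an SRSF gene. RNA-seq replicates without a PRO-seq library of the same number do not inform the contrast in that fit. Depth limits SRSF5, SRSF9 and SRSF6, with 530, 827 and 991 summed PRO-seq counts.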

Other observations

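RSRP1, an arginine- and serine-rich protein gene in the list of SR-related proteins, resembled SRSF5 in its counted transcript. The transcript spans 95910 bp against 5206 bp for the MANE transcript, and the log2 relative half-life turned from 2.07 ± 0.055 (SE; edgeR adjusted p = 2.9e-25) to -1.04 ± 0.054 (SE; 3.8e-17) with the length shared with MANE. The value of RSRC1, with spans of 438668 and 435642 bp, went from 3.04 to 3.16.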
